A study of Drosophila melanogaster with 5 samples.

Results

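The chorion proteins are the structural proteins of the outer eggshell of Drosophila melanogaster. Their genes were followed here in whole females labelled as deficient in the insulin-producing cells (IPCs) of the brain, set against control females. The genes were chosen by symbol: 9 chorion protein genes are on the list, and 7 of them had a value among the 10124 genes measured. These 7 were Cp36, Cp38, Cp16, Cp19, Cp15, Cp18 and Cp7Fc, while Cp7Fa and Cp7Fb had no probe in the annotation used and were not analysed here. The IPC-deficient females carried the driver InsP3-Gal4 with UAS-RPR/HID, which expresses the cell death genes reaper and hid in the cells that the driver marks. The control females carried InsP3-Gal4 with UAS-LacZ, so both groups shared the driver. All flies were females aged 14 days, kept apart from males after 11 days, given 1 day to recover from carbon dioxide and then fed yeast paste alone for 48 h. Total RNA of both groups was hybridised together on 5 two-colour spotted arrays from 2 biological repeats, with IPC-deficient RNA in Cy5 on 2 arrays and in Cy3 on 3. The number of flies behind each RNA is not stated in the labels.

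The eggshell is made by the somatic follicle cells that surround each egg chamber. These cells first secrete the vitelline membrane, the inner layer next to the oocyte, and then the layers of the chorion, whose proteins are cross-linked as the egg is completed. The major chorion genes lie in a cluster on the X chromosome and another on chromosome arm 3L. Both clusters are amplified in follicle cells shortly before use, so that each gene is present in many copies when the proteins are needed, and the genes are switched on in a fixed order during the last stages of oogenesis. Yeast feeding and insulin signalling are known to set the pace of egg production in females.

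The authors deposited 1 combined signed fold change per probe, written identically in every array that had a value, which leaves no measured spread over arrays or flies and allows no test. In its place, values are set beside the SD between probes that share a gene, 0.18 on the log2 scale over 647 genes measured by 1437 probes on all 5 arrays. This SD says how far probes differ and nothing about flies. Which RNA is the numerator is not stated. A positive value is read here as higher in IPC-deficient flies, which is taken as likely because the design names these flies first. The gene tobi, an insulin target by its name, stood at -4.10 on the log2 scale. Its name alone does not say whether insulin raises or lowers it, so this value does not settle the direction. Ilp2, which encodes an insulin-like peptide of the IPCs, stood at 0.01 from 4 spots. This value shows no loss of Ilp2 RNA, so it does not show the ablation. Between 63.8% and 86.6% of the 32448 spotted features had a value on an array.

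Of the 7 measured chorion genes, 6 stood above 0 and Cp7Fc at -0.01, and the median was 0.22 on the log2 scale. Among all measured genes the median was -0.01 and 48.1% stood above 0. Every measured chorion gene had a value in all 10 possible spots of each measured probe (2 copies on 5 arrays). Genes of this kind are called fully measured here, although probes empty in all spots were left out. Cp15 and Cp18 each had 1 such empty probe. Among the 3568 fully measured genes, the median was also -0.01 and 47.3% stood above 0. The middle 95% of their values ran from -0.34 to 0.58. Of these genes, 14.2% stood above 0 by more than the SD between probes, whereas 6 of the 7 chorion genes did, Cp36 narrowly at 1.05 times that SD. At 1.5-fold or more (0.58 on the log2 scale), 1 chorion gene was positive and 0 were negative, against 2.24% and 3.11% of all measured genes and 2.35% and 0.42% of the fully measured ones. In RNA of whole females, more follicle cells of a late stage and more RNA per follicle cell cannot be told apart.

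**Figure D1:**
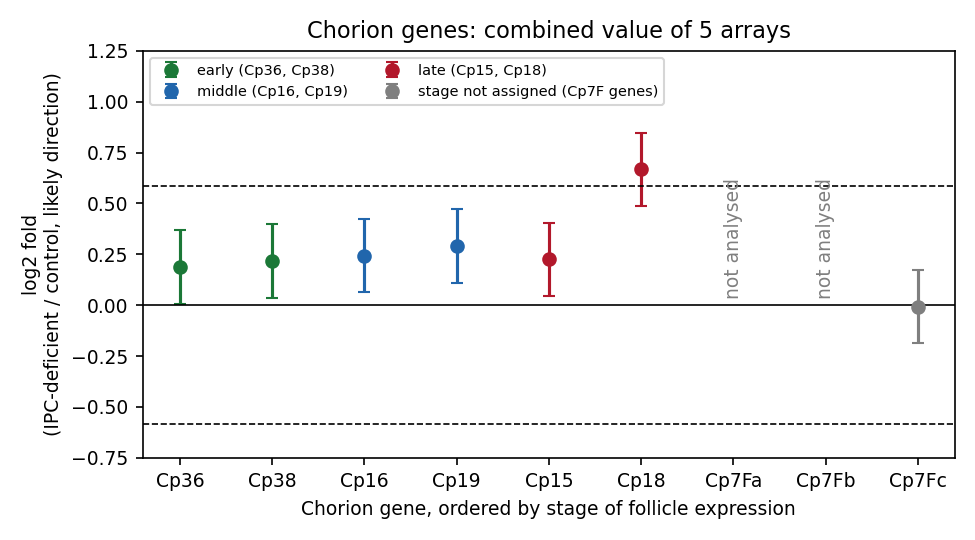
Combined log2 fold of each chorion gene (y axis, IPC-deficient over control in the likely direction), ordered by the stage of follicle expression and coloured by stage. Error bars are the SD between probes of a gene (0.18), dashed lines mark 1.5-fold, and 6 of 7 points lie above 0, with Cp18 alone above the upper line at 0.67.

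The early chorion genes are Cp36 and Cp38, which encode major chorion proteins and are the first of the chorion genes to be expressed. Cp36 had a deposited fold of 1.14 in all 10 spots, on all 5 arrays, which is 0.19 on the log2 scale. Cp38 had a deposited fold of 1.16 in all 10 spots, which is 0.22. The early genes thus stood next to each other and near 1 SD between probes above 0. Among the fully measured genes, 13.5% had a value at or above that of Cp36 and 11.6% at or above that of Cp38.

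The middle genes are Cp16 and Cp19, which follow the early genes during chorion formation. Cp16 had a deposited fold of 1.18 in all 10 spots, which is 0.24 on the log2 scale. Cp19 had a deposited fold of 1.22 in all 10 spots, which is 0.29, or 1.62 times the SD between probes. Of the fully measured genes, 7.65% stood at or above Cp19. The difference of 0.05 between the middle genes was smaller than the SD between probes.

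The late genes are Cp15 and Cp18, whose transcripts peak when the chorion is nearly complete. Cp15 had a deposited fold of 1.17, which is 0.22 on the log2 scale. It filled all spots of 2 of its 3 probes, placed in blocks 22 and 33 of the array, and both carried the same value. In the whole table, 7.1% of the 1071 pairs of probes of a gene that were filled on all arrays had equal values, and whether the Cp15 probes were measured separately is not stated. The remaining Cp15 probe was empty in all 10 spots, as was 1 of the 2 probes of Cp18, whereas 6.4% of all probes with a gene name were empty.

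Cp18 stood apart from the other chorion genes. It had a deposited fold of 1.59 in all 10 spots of 1 probe, which is 0.67 on the log2 scale, or 3.71 times the SD between probes. Of the fully measured genes, 61 of 3568 (1.71%) had as high a value. Cp18 exceeded Cp19, the next chorion gene, by 0.38, and 10.3% of the 995 pairs of unequal probes of a gene differed by at least as much. Without Cp18, the chorion median was 0.22 over 6 genes, with a highest value of 0.29.

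The 2 late genes thus did not stand together, since Cp15 lay among the early and middle genes. From Cp36 at 0.19 to Cp19 at 0.29, 5 chorion genes spanned 0.10 on the log2 scale, and 56.7% of unequal probe pairs of a gene differed by at least that amount. Their order within this span is therefore smaller than the differences between probes of a gene. Cp7Fc, a less abundant chorion protein gene of the X cluster to which no stage was assigned here, had a deposited fold of -1.01 in all 10 spots, which is -0.01 on the log2 scale. It lay 0.20 below Cp36, its nearest chorion gene in value, a gap that 30.9% of unequal probe pairs reached.

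**Figure D2:**
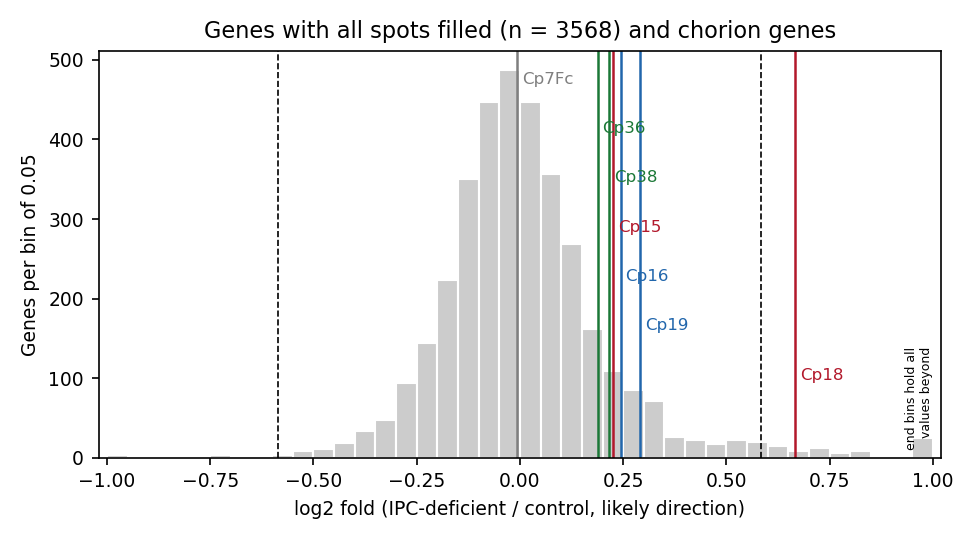
Number of genes per bin of log2 fold (grey bars) among the 3568 genes with every measured probe filled in all spots, with the end bins holding all values beyond the axis, and the 7 chorion genes as coloured lines. Cp7Fc lies at the centre, 5 genes lie between 0.19 and 0.29, and Cp18 lies beyond the dashed line of 1.5-fold.

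Probes spotted around Cp18 on the array also stood above 0. The 18 other measured probes within 2 rows and 2 columns of the Cp18 probe, in block 21, had a median of 0.15, with quartiles of 0.10 and 0.27. Only 0.421% of measured probes had surroundings with as high a median. The Cp38 probe lay in the same block, whose own median was 0.01, and its surroundings had a median of -0.09. With each probe taken relative to the median of its surroundings, Cp18 stood at 0.51 (1.43-fold) and no longer reached 1.5-fold. It was still the highest chorion gene, and the part of the array position in its value was not tested further.

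For the other chorion genes the surroundings were lower than the probe itself or close to it. The Cp36 probe had surroundings at a median of -0.13, and relative to them Cp36 stood at 0.32. Relative to surroundings Cp38 stood at 0.31, Cp19 at 0.28, Cp16 at 0.27 and Cp7Fc at -0.02. The Cp15 probes stood at 0.11 in block 33, where the surrounding median was 0.12, and at 0.21 in block 22, and their joint value was 0.16. All 6 positive genes thus remained above 0, and the chorion median was 0.28 in place of 0.22.

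**Figure D3:**
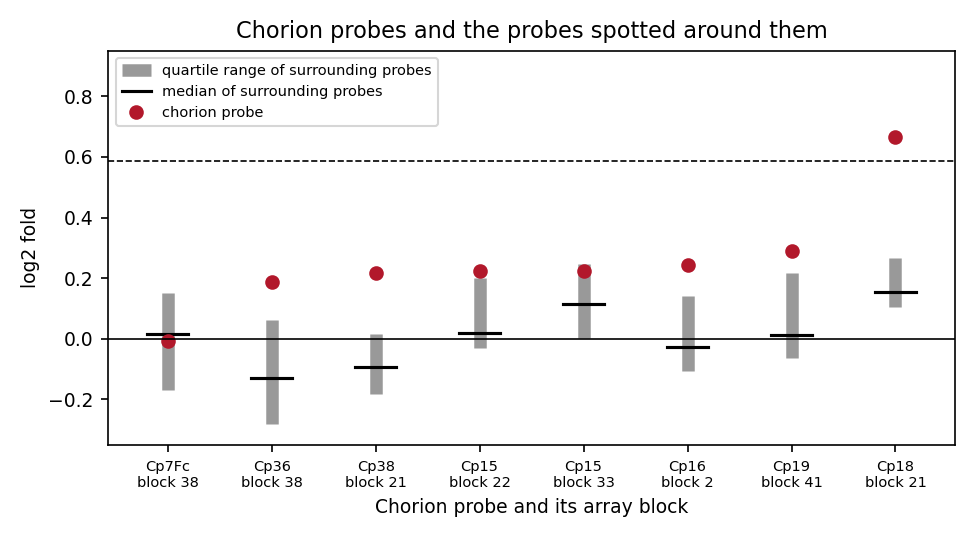
Log2 fold of the 8 measured chorion probes (red points) beside the median (black line) and the quartile range (grey bar) of the other probes within 2 rows and 2 columns of the same array block. The grey bar of Cp18 lies wholly above 0, from 0.10 to 0.27, and the bars of Cp36 and Cp38 lie mostly below 0.

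By chromosomal cluster, the 4 genes on 3L ranged from 0.22 to 0.67 with a median of 0.27, and the 3 measured genes on the X from -0.01 to 0.22 with a median of 0.19. All 4 values of the 3L cluster were above the 3 of the X cluster, but Cp15 on 3L and Cp38 on the X differed by less than the SD between probes. Relative to the array surroundings this separation did not hold, since Cp36 and Cp38 of the X then stood above Cp15, Cp16 and Cp19 of 3L.

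Genes beside the clusters were read to see whether the values extended past the chorion genes. Of the 20 genes in the RefSeq gene table of Release 6 that lie within 5 places of either cluster, 13 were measured. Their median was 0.03, with 7 above 0 and 6 below, near the 48.1% above 0 over all genes. Above 0 by more than the SD between probes (0.18) lay CG15347, CG12116, Nrg, Prm, CG13306 and Fhos, and CG6511 lay as far below. That SD comes from probes on all 5 arrays. With probes filled on fewer arrays included, the SD between probes was 0.56, and of these genes CG15347 alone exceeded it. Nrg stood at 0.34 from 7 spots and CG13306 at 0.23 from 4 spots. Fhos stood narrowly beyond, at 0.18, from probes at 0.05 and 0.32 with as few as 4 spots. CG15347, CG12116 and Nrg, all beside the X cluster, exceeded every measured chorion gene there. Among the fully measured genes, 14.2% stood above 0 by more than the SD of 0.18, but several of these neighbours had fewer spots. On 3L, the nearest measured genes were CG6511 at -0.22 from 5 spots on the Cp18 side and Prm, which encodes the muscle protein paramyosin, at 0.27 on the Cp16 side. The 2 different probes of Prm stood at 0.03 and 0.50. On the X, the nearest were CG12116 at 0.40 on the Cp7Fa side and otu, a gene needed in the female germ line, at -0.12 on the Cp38 side. CG15347, 5 places from Cp7Fa, was the single measured neighbour beyond 1.5-fold, at 0.63, where 2.24% of all measured genes lay as far on the positive side.

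**Figure D4:**
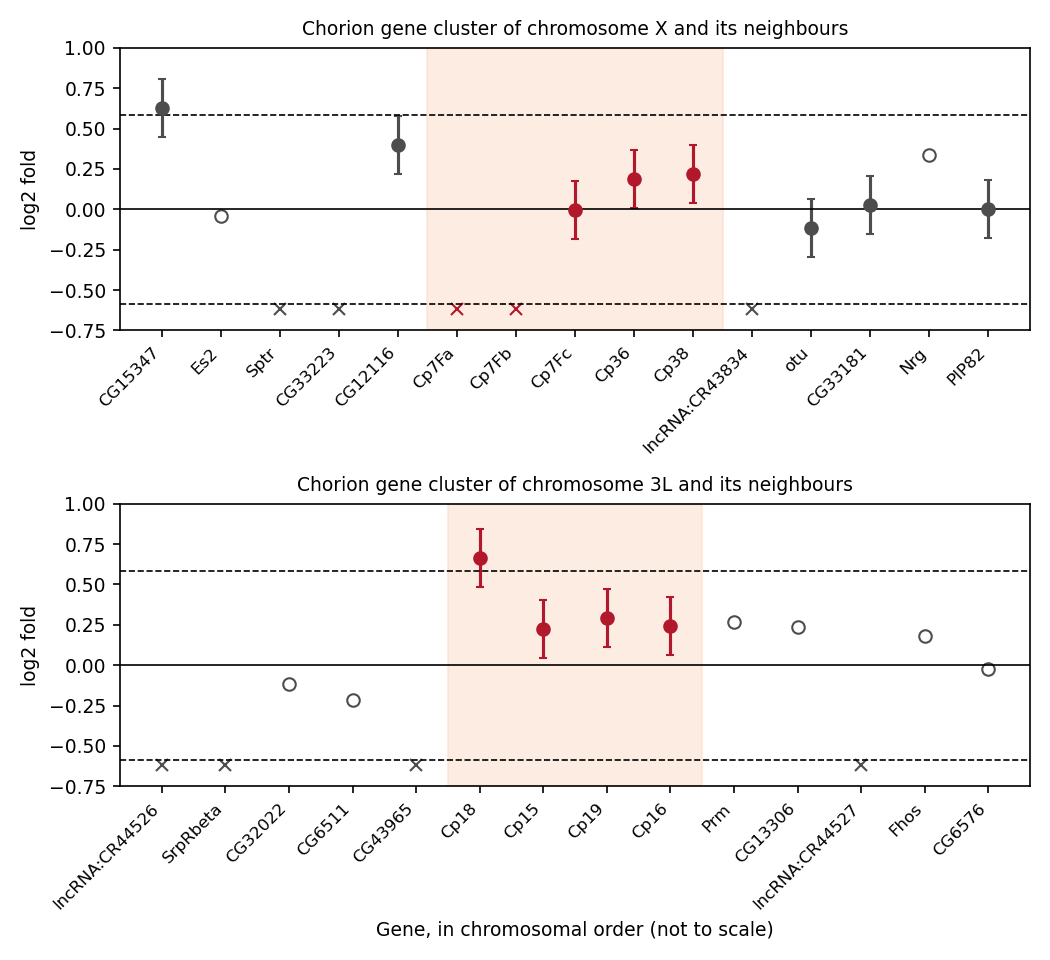
Log2 fold (y axis) of the chorion genes (red, shaded) and of 5 genes on each side (grey) in chromosomal order, for the X and 3L clusters. Filled points had all spots filled and carry the SD between probes (0.18), open points had fewer spots, crosses mark genes not analysed, and dashed lines mark 1.5-fold, which Cp18 and CG15347 exceed.

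The vitelline membrane genes, which follicle cells express before the chorion genes, stood on the other side of 0. All 6 measured genes of the 9 listed were below 0, with a median of -0.18 and 0 beyond 1.5-fold, against 51.9% of all measured genes below 0. The vitelline membrane protein genes Vm32E, Vm34Ca and Vm26Aa stood at -0.54, -0.35 and -0.11, and ndl, a protease laid down in the eggshell that acts in dorsoventral patterning, at -0.26. The highest vitelline membrane gene stood at -0.06 and the lowest chorion gene, Cp7Fc, at -0.01. The lists thus did not overlap, but the gap of 0.05 between them was smaller than the SD between probes, and 75.6% of unequal probe pairs of a gene differed by at least as much. The medians of the lists lay 0.41 apart, a difference that 7.94% of unequal probe pairs of a gene reached. Those pairs compare single probes and not medians of lists, so this share is no like measure. Relative to the array surroundings, all 6 vitelline membrane genes were also below 0, with a median of -0.22.

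Other eggshell genes stood on both sides of 0, as all genes did. Of 7 measured genes of the 10 listed, 4 were above 0 and 3 below, near the 48.1% above 0 over all genes, with a median of 0.01 and 0 beyond 1.5-fold. On the negative side, dec, which encodes defective chorion proteins laid down in the eggshell from the vitelline stage on, stood at -0.41 and Femcoat, a chorion assembly protein gene, at -0.37. On the positive side, yellow-g, a gene of the yellow family needed for a rigid eggshell, stood at 0.15, and the mucin gene Muc4B at 0.13. Every positive value of this list was below the SD between probes and below 6 of the 7 chorion genes.

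**Figure D5:**
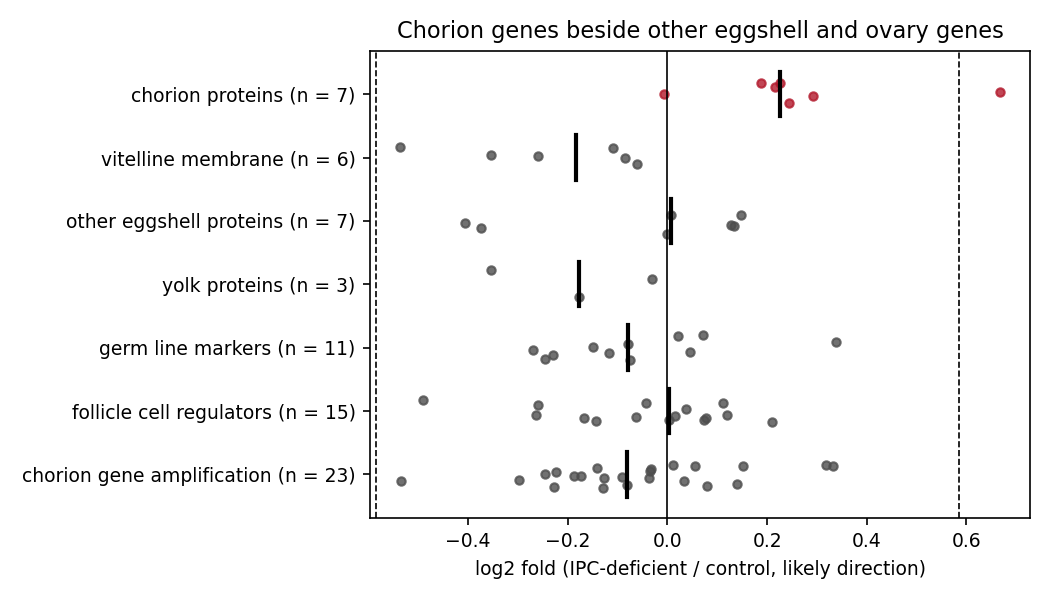
Log2 fold (x axis, in the likely direction) of each measured gene in the chorion list and 6 other lists, with list medians as black bars and 1.5-fold as dashed lines; points are spread vertically only to be seen. The 7 chorion points have a median of 0.22 and the 6 vitelline membrane points a median of -0.18, with Cp7Fc at -0.01 within the SD between probes of the highest of them.

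Genes listed for a part in the amplification of the chorion clusters stood on both sides of 0, with more of them below. The list does not sort genes by whether they promote or restrain amplification, so its counts give no direction for that process. Of 23 measured genes of the 29 listed for replication origins, their helicase and the E2F and Myb complexes, 8 were above 0 and 15 below, with a median of -0.08 and 0 beyond 1.5-fold, where 48.1% of all measured genes were above 0 and 51.9% below. Mcm6, a subunit of the replicative helicase for which mutants with thin eggshells are known, stood at -0.54, and Orc4, a subunit of the origin recognition complex, at -0.30. The helicase subunit gene dpa stood at 0.33 from 7 spots, and mip120, a subunit of the Myb complex, at 0.32 from probes at 0.21 and 0.43. Transcription factors and signalling genes of follicle cells stood on both sides of 0, 8 above and 7 below, near the share over all genes. Their median was 0.00 over 15 measured genes of 20 listed. Among them, the ecdysone receptor partner usp, also known as a factor that binds a chorion promoter, stood at -0.26, Cf2, another chorion promoter binding factor, at -0.26, and the GATA factors GATAd and GATAe at -0.17 and 0.21.

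Transcripts of yolk and of the rest of the ovary were read beside the chorion genes. Yp1, Yp2 and Yp3, the yolk protein genes of fat body and follicle cells, stood at -0.35, -0.18 and -0.03, and relative to the array surroundings their median was -0.08 in place of -0.18. Of 11 measured germ line genes of the 14 listed, 4 were above 0 and 7 below, with a median of -0.08. Over all measured genes, 51.9% were below 0. The translational repressor gene nanos stood at 0.34, bam, a gene of germ cell differentiation, at -0.24, and the transposon silencing genes piwi and spn-E at -0.27 and -0.23. Send1, a spermatheca gene, stood at -0.27. The accessory gland genes of males Acp95EF, Acp36DE, Acp62F and SP, taken as markers of male RNA, stood between -1.32 and -0.47 with at most 5 filled spots each. The table holds ratios and no levels, so these lists show no amount of ovary or male RNA, and their part in the chorion values was not tested.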

How the data were processed

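The values are signed fold changes (a score with no value between -1 and 1) that the authors deposited as 1 combined number per probe. Per the labels and design text, each array was scanned 3 times, and both spot copies and all hybridisations entered the normalization. How background was corrected and which normalization was used is not stated there. Of 27376 features filled on 2 or more arrays, 0 differed between arrays by more than 1e-06, so the limma model and the leave-one-out fits foreseen for separate arrays were not run. The number of arrays limits the precision.

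Each fold was turned into log2 of its size with its sign kept. The 32448 features formed 16224 probes, of which 12536 had 1 gene symbol in the annotation of 2007, 3 several and 3685 none. Symbols were updated through Entrez identifiers (12068 probes) or accessions (113) with the RefSeq table of Release 6, and 355 were kept. Probes of a gene were joined by their median, and values equal to 5 decimals counted once. The SD between probes was pooled over genes. The joining of spots and probes was tested on simulated data. Lists are described by counts and medians. The members and lists were chosen with earlier results of these data known. Named were all chorion genes, up to 4 genes furthest from 0 per other list among those on all 5 arrays, and the nearest or called cluster neighbours. The other neighbours beyond the SD between probes were named after seeing the data. CG15347 came from that rule, and the 4 male genes are fixed markers. Sequences were not analysed here, nor a promoter hexamer search that had been planned. Python 3.11.15, numpy 2.4.6, pandas 2.3.3 and matplotlib 3.10.9 were used.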

Additional observations from a re-analysis of the deposited data

How the results depend on the processing

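No paired analysis was possible because the table holds 1 combined value for all arrays, and leaving out an array was not run for the same reason. Centring each column moved no chorion gene by more than 0.0044 on the log2 scale and changed no count of chorion genes. The symbols of the annotation left these values unchanged. Using the mean over probes, the probe with most filled spots or equal-valued probes counted singly could not move them. Nor could keeping only probes on all 5 arrays or with at least 5 spots. Each measured chorion gene had 1 distinct value, from probes with all 10 spots filled, so these alternatives tested nothing for the chorion genes. At a 2-fold threshold, 0 chorion genes and 0 cluster neighbours were called. Relative to the surrounding probes, an alternative chosen after seeing the data, 0 chorion genes reached 1.5-fold and 6 stood above 0. Among all 10124 genes, 246 positive values (2.43%) and 305 negative ones reached this threshold under the same alternative. With 3 neighbours on each side of a cluster, 0 of 7 measured were beyond 1.5-fold. With 10 on each side, 5 of 28 measured were, and 3 of these 5 had all spots filled. The 4 positive ones were a larger share than the 2.24% of all genes, and the 1 negative one was near the 3.11%. Medians of other lists that moved by over 1.5 times were those of germ line genes (-0.18 with the probe with most spots, -0.12 relative to surroundings), reproductive tract genes (-0.27 with probes on all 5 arrays), amplification genes (-0.04 relative to surroundings) and yolk protein genes (-0.08 relative to surroundings). The medians of follicle cell regulators, other eggshell genes and cluster neighbours, all within 0.03 of 0, stayed between -0.04 and 0.06, and that of the regulators changed sign with probes on all 5 arrays or at least 5 spots. If the unstated direction were the opposite, Cp18 would stand at -0.67, with 1 chorion gene called on the negative side and 0 on the positive, 1 above 0 and a chorion median of -0.22, and the medians would be 0.18 for vitelline membrane genes, 0.18 for yolk protein genes and 0.15 for reproductive tract genes.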
